A study of Drosophila melanogaster with 3 samples.

Results

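Cytoplasmic ribosomal protein genes were examined for binding by Pipsqueak (Psq) in Drosophila melanogaster. They were chosen by name, as the protein-coding genes whose symbol in the Ensembl annotation of the dm6 genome is RpL or RpS followed by a number or a stalk name such as P0, with or without a closing A, a or b, or both. This gave 85 members among 13945 protein-coding genes on X, 4 and the left and right arms of chromosomes 2 and 3. Of these members 48 encode proteins of the large ribosomal subunit and 37 proteins of the small subunit. The naming rule uses no binding value, but it was chosen with earlier results of these data known.

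The ribosome is built from ribosomal RNA and ribosomal proteins, which must be made in matching amounts, and larvae that grow quickly transcribe these genes at high rates. Lowered dosage of many of them gives the Minute phenotype of slow growth and short bristles. In flies their promoters commonly lack the usual initiator and start instead within a pyrimidine stretch, the TCT element, and they depend on the TBP-related factor Trf2, which is brought to many of them by the zinc-finger protein M1BP and the factor Dref. Psq is a transcription factor of the BTB family that recognises GA repeats through its helix-turn-helix Psq motifs, and it is linked to Polycomb and trithorax group regulation.

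The samples were 3 biological replicates of 1 group, strain psq-GFP. These were whole wandering larvae of the third instar, males and females pooled, of a stable transgenic line in which green fluorescent protein is fused to the C-terminal end of Psq. Chromatin was sheared by sonication and precipitated with an antibody to the fluorescent protein, so the values average over all larval tissues. There is no untreated or mutant group, the promoter that drives the fusion is not given in the sources used here, and peak lists hold no RNA values by which the tissue could be checked. The authors' lists held 28037, 28294 and 24291 peaks in replicates 1, 2 and 3, and 10138 peaks in the optimal list drawn from all replicates together. The lists give no read counts, so sequencing depth is unknown and a gene without a summit is only without a call.

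A gene was counted as bound when the summit of an optimal peak lay within 1000 bp of any of its annotated transcription start sites (TSSs). Of the 85 members 61 were bound (71.8%), against 28.7% of all protein-coding genes (4002 of 13945). By the same count 35 of 48 large-subunit genes (72.9%) and 26 of 37 small-subunit genes (70.3%) were bound. For the count in single replicates, only the 10138 highest-scoring peaks of each replicate were used, called strong peaks here. Of the members 65 had a strong summit in replicate 1, 62 in replicate 2 and 62 in replicate 3, against 29.5%, 29.7% and 28.3% of all protein-coding genes in replicates 1, 2 and 3. The share was 74.1% ± 2.04 in members and 28.9% ± 0.773 in other protein-coding genes (SD, n = 3 each). The difference, members minus other genes, was 45.2 ± 1.91 percentage points (SD, n = 3), with the same direction in 3 of 3 replicates. An exact permutation test over the replicates (sign flips, two-sided) gave p = 0.25, the smallest that 3 replicates allow. A strong summit in all 3 replicates was found for 54 members (63.5%), against 21.5% of other protein-coding genes.

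Members had shorter gene bodies than other protein-coding genes, with a median of 1333 bp against 2178 bp. Of the other protein-coding genes within the members' length range 20.8% were bound. Genes of the fly are often arranged in divergent pairs that share the DNA between their start sites. Among members with a divergent protein-coding neighbour within 1000 bp 43 of 52 were bound (82.7%), against 18 of 33 without one (54.5%). Among other protein-coding genes the shares were 41.2% with a divergent neighbour and 21.2% without one. Members with 2 or more annotated TSSs were bound in 33 of 43 cases (76.7%) and members with 1 TSS in 28 of 42 (66.7%), against 51.0% and 20.4% of other genes with 2 or more TSSs and with 1 TSS. How far these features account for the share of members bound was not tested.

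**Figure D1:**
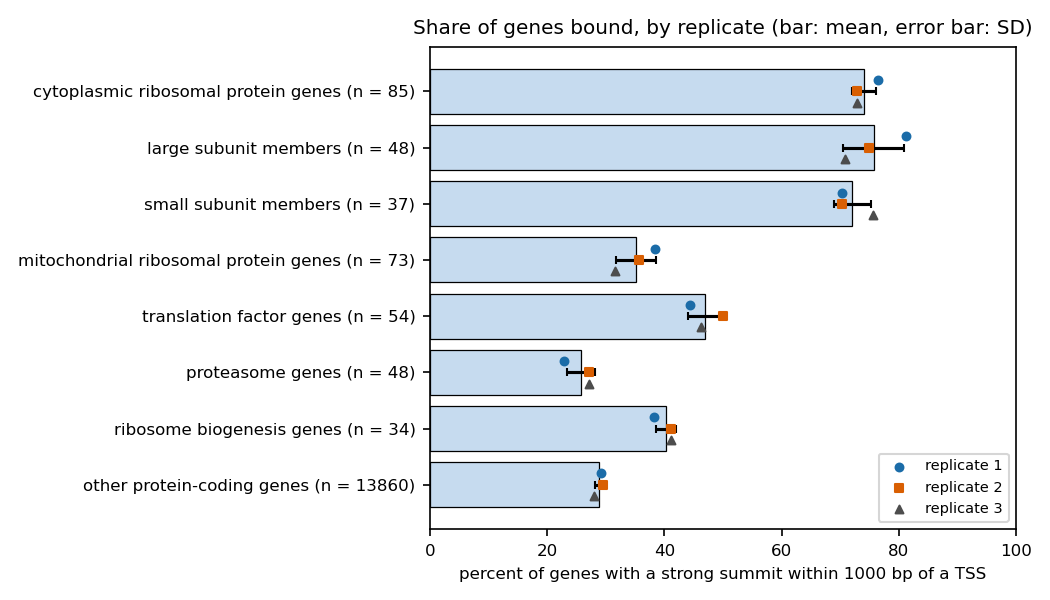
Percent of genes (horizontal axis) with a strong Psq-GFP summit within 1000 bp of a TSS, for the members, their large- and small-subunit parts, 4 comparison lists and all other protein-coding genes. Bars are means and error bars SDs over 3 replicates, and points are single replicates; the members average 74.1% and the other protein-coding genes 28.9%.

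Promoters of 4 strongly bound and 2 unbound members are shown because the comparison of motifs turns on their letters. Each run covers 120 bases before to 20 after the TSS on the gene's strand, 141 bases in all, from the RefSeq dm6 sequence. Capitals mark GAGAG, the DREF site TATCGATA and GGTCACAC, a core motif bound by M1BP, each on either strand, and CTTT starting within 5 bp of the TSS, the core of the TCT element. The first 4 are among the members with the highest-scoring summits at their own TSS, namely RpS27 at chr3R:25247494-25247634 (minus strand), RpL7 at chr2L:10200884-10201024 (plus strand), RpL28 at chr3L:3222940-3223080 (minus strand) and RpL13A at chr3R:5624354-5624494 (plus strand). The last 2 are members with no optimal summit, RpS5a at chrX:17148244-17148384 (minus strand) and RpL10Aa at chr3R:15037246-15037386 (plus strand).
RpS27: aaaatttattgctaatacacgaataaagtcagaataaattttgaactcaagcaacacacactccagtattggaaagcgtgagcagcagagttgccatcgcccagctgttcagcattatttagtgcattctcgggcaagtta
RpL7: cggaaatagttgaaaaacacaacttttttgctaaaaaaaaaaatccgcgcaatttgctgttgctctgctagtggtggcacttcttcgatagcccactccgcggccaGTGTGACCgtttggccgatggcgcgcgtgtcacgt
RpL28: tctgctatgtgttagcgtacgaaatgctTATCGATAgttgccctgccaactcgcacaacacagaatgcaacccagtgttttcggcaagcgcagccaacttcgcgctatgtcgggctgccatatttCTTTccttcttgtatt
RpL13A: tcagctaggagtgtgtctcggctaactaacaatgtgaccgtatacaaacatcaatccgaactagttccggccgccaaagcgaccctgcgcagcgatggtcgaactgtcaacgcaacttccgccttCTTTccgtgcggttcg
RpS5a: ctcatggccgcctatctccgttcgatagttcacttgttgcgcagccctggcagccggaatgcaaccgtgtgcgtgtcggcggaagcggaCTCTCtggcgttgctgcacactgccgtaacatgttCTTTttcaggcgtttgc
RpL10Aa: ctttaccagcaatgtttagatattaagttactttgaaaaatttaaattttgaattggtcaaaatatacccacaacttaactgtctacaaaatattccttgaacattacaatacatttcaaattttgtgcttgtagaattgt
GAGAG lies in the window of RpS5a and in none of the other 5. RpS5a is unbound in the optimal list, although it had strong summits in all 3 replicates. These are examples, and RpL41, which ranks among the 4 highest-scoring members, holds GAGAG in its promoter and at its summit. RpL28 carries the DREF site and RpL7 the M1BP motif on the opposite strand. RpL28, RpL13A and RpS5a have CTTT starting 5, 5 and 4 bases after the TSS. RpS27 and RpL10Aa hold none of the marked motifs.

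For comparison across replicates, each score was divided by the median score of the strong peaks of its replicate, which gives a relative score of 1 for a typical strong peak. RpS27, a zinc-binding protein of the small subunit, had the highest score, with relative scores of 4.47, 5.58 and 3.64 in replicates 1, 2 and 3 and its summit 13 bp downstream of the TSS. RpL7, a large-subunit protein, followed with 4.04, 4.59 and 4.18, and its summit lay 34 bp downstream. RpL28 had 3.75, 3.21 and 3.84. All 3 were over 3 in every replicate, RpS27 and RpL7 being highest in replicate 2 and RpL28 in replicate 3.

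RpL41, the shortest of the ribosomal proteins, had relative scores of 3.41, 3.09 and 3.86 in replicates 1, 2 and 3. RpL13A had 3.25, 2.73 and 3.24. RpL22 had 3.69, 3.09 and 3.58, but this summit lay 488 bp upstream of its TSS and nearest to a TSS of the non-coding gene lncRNA:CR44966. A second, weaker optimal summit of RpL22 lay 42 bp from its TSS. These 3 genes varied little between replicates.

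The next 4 in rank varied more. RpL34b had 2.83, 2.69 and 4.54 in replicates 1, 2 and 3, and RpL23A, which sits at the exit of the peptide tunnel, had 2.86, 2.56 and 4.31. RpS4 had 3.76, 1.89 and 3.79. RpS29, another zinc-binding protein of the small subunit, had 4.47, 1.92 and 4.14. In RpL34b and RpL23A replicate 3 stood above the others, and in RpS4 and RpS29 replicate 2 stood below them.

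Over the 61 bound members the relative score, as the mean over replicates with a summit within 200 bp, ranged from 0.351 to 4.56 with a median of 1.85. In single replicates the medians were 1.92, 1.75 and 1.97 in replicates 1, 2 and 3. The mean was above 1 in 55 members, and all 3 replicates were above 1 in 39. By score percentile in the optimal list the strongest summits of bound members had a median of 80.3, against 62.6 for other bound protein-coding genes. Of the members 14 lay in the top 10% of the list. The median percentile was as high in 23 bound translation factor genes (80.5) and 7 bound genes of factors linked to ribosomal protein promoters (81.7). These 7 include psq itself and Dref, whose counted summit is also that of the member RpL13. The median percentile was 69.8 in ribosome biogenesis, 65.3 in mitochondrial ribosomal protein and 64.1 in proteasome genes. By each replicate's strong summits, the median relative score averaged 1.78 in members, 1.74 in translation factor genes and 1.24 in other genes. Large-subunit genes had a median relative score of 2.04 and small-subunit genes 1.53, and both parts spanned most of the range. The spread between replicates was wide for a single gene, with a median coefficient of variation of 24.8% over the 54 members found in all 3 replicates. Spearman's rho of the relative scores across members was 0.623 between replicates 1 and 2 (n = 57), 0.717 between 1 and 3 (n = 55) and 0.774 between 2 and 3 (n = 56). These are correlations across genes that share libraries, given as a description.

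**Figure D2:**
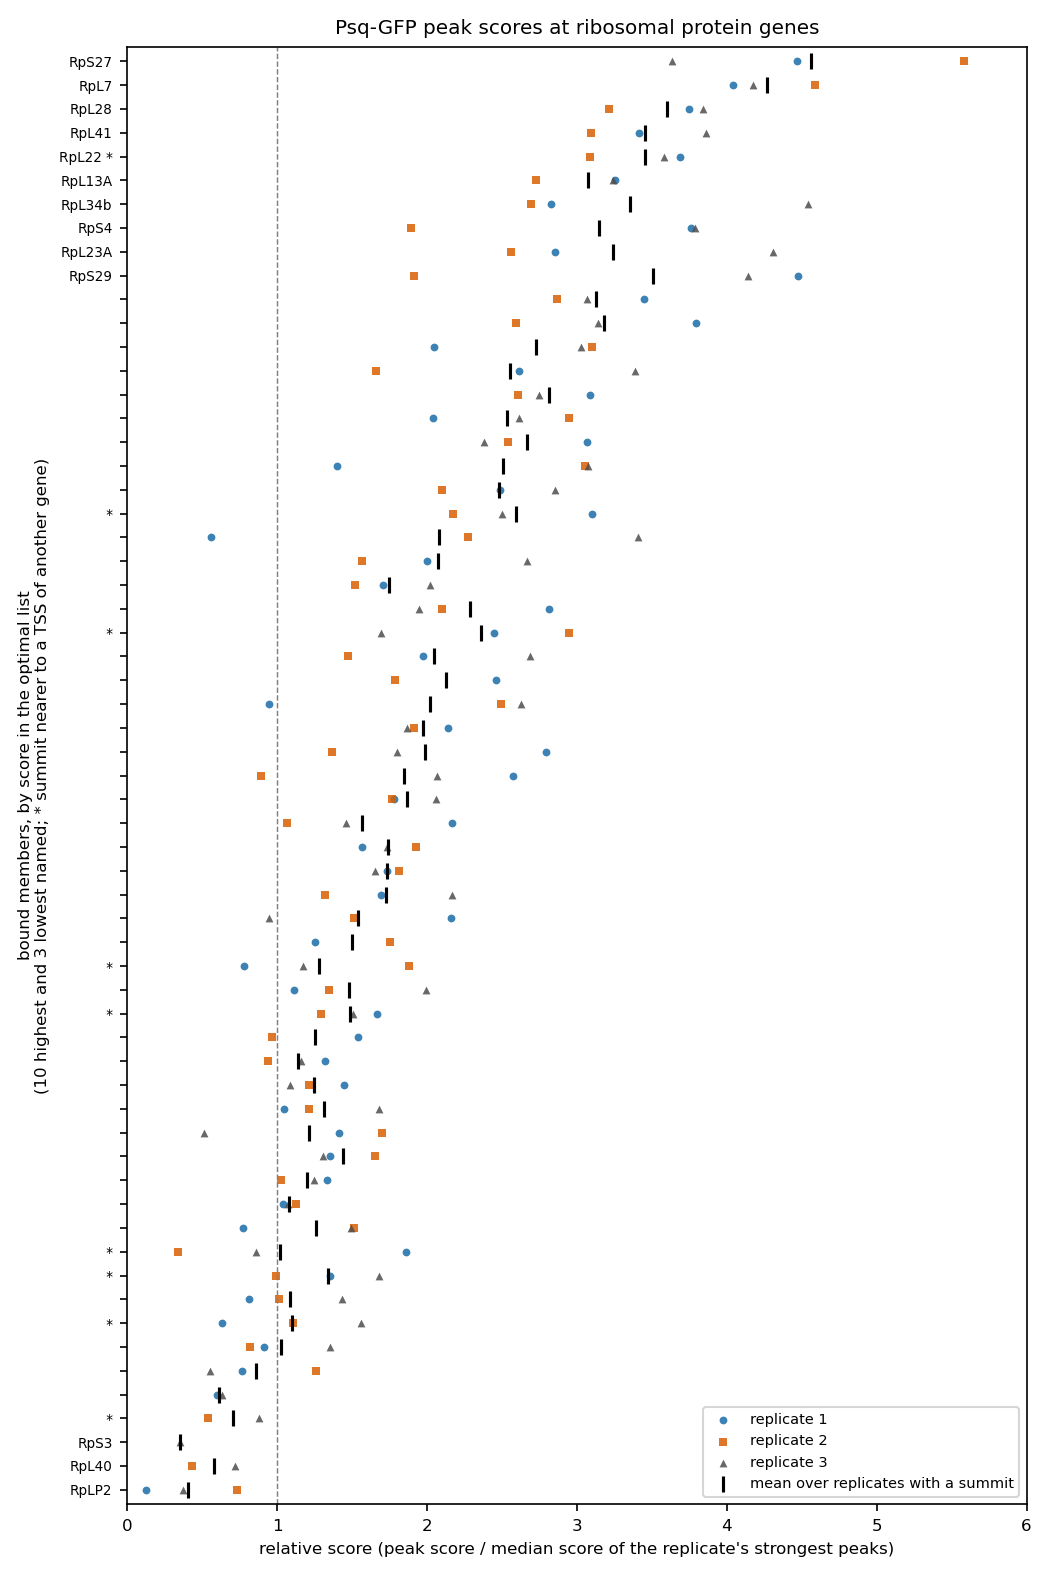
Relative score of the strongest optimal summit (horizontal axis, peak score divided by the median score of the replicate's strong peaks) for the 61 bound members, ordered by score in the optimal list from top to bottom, with names for the 10 highest and the 3 lowest. Symbols are replicates, black ticks are means over the replicates with a summit, an asterisk marks summits nearer to another gene's TSS, and most members lie right of 1, with RpS27 and RpL7 highest.

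The 3 bound members with the lowest scores were RpS3, RpL40 and RpLP2. RpS3, which lines the entry path of the messenger RNA, had a summit in replicate 3 alone, with a relative score of 0.351. RpL40, made as a fusion to ubiquitin, had none in replicate 1, 0.431 in replicate 2 and 0.722 in replicate 3. RpLP2 had 0.124, 0.730 and 0.370 in replicates 1, 2 and 3. Its optimal peak, 387 bp upstream of the TSS, had an authors' score of 93.8, just above the lowest score on the 6 arms of the optimal list, 90.3.

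The 3 stalk genes, whose products form the flexible arm that recruits translation factors, were unlike in score. RpLP0, the base of the stalk, had 1.97, 1.48 and 2.69 in replicates 1, 2 and 3. RpLP1 had 2.79, 1.36 and 1.8. Both were above 1 in every replicate, whereas RpLP2 was below 1 in each. The other ubiquitin fusion gene, RpS27A, had no optimal summit and no strong summit in any replicate.

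Among small-subunit genes followed for their known roles, RpS6, the target of S6 kinase, had relative scores of 1.11, 1.34 and 1.99 in replicates 1, 2 and 3, at a summit 10 bp downstream of its TSS. RpS21, known in flies for overgrowth of blood-forming organs when mutated, had 1.4, 3.05 and 3.07. RpS13, a classical Minute gene, had no optimal summit within 1000 bp and a strong summit in replicate 3 alone, at 0.727. RpS6 and RpS21 were thus above 1 in every replicate.

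Several members exist as pairs of paralogs, and for some of these the fly uses 1 copy broadly and the other mainly in the germline. In 4 of the 8 pairs 1 copy was bound at its own TSS and the other had no optimal summit. RpL10Ab had 1.78, 1.76 and 2.06 in replicates 1, 2 and 3, whereas RpL10Aa had no strong summit in any replicate. RpS10b had 0.949, 2.49 and 2.62, and RpS15Aa had 1.69, 1.32 and 2.17, whereas RpS10a and RpS15Ab had none. RpL34b, given above, had a partner with a strong summit in replicate 1 alone, RpL34a at 0.620.

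In another 2 pairs both copies counted as bound, but only 1 at its own TSS. RpS19a had 2.17, 1.07 and 1.46 in replicates 1, 2 and 3 at 7 bp upstream of its TSS, and RpS28b had 3.8, 2.60 and 3.14 at 26 bp upstream. The summit counted for RpS19b lay 526 bp upstream and nearest to CG5854, and that counted for RpS28a lay 463 bp downstream and nearest to Mgat2. The tandem copies RpS14a and RpS14b were both bound at their own TSS, RpS14b with 2.04, 2.95 and 2.61 and RpS14a with 0.810, 1.01 and 1.43. How reads that match both copies were assigned is not given in the sources used here, so values of close copies are uncertain.

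RpS5a and RpS5b make up the eighth pair, and neither was bound in the optimal list. RpS5a nevertheless had strong summits in all 3 replicates, with relative scores of 1.09, 0.656 and 1.10, at 42 bp upstream, 7 bp downstream and 21 bp upstream of its TSS. It was the only member of 54 with strong summits in every replicate that was not bound in the optimal list, and it had no peak in the list of 30000 peaks called on all replicates together. Among all protein-coding genes with a strong summit in every replicate, 45 of 3034 (1.48%) lacked a peak in that list. RpS5b had no strong summit in any replicate and a peak scored 85.7 in the list called on all replicates, below the optimal list.

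Of the members with a single exon 2 of 5 were bound, RpS28a and RpLP2, neither with its optimal summit within 100 bp of its own TSS. In replicate 2 alone RpLP2 had a strong summit, 76 bp downstream of its TSS, with a relative score of 0.874. The 3 unbound members with a single exon were RpL10Aa, RpS10a and RpS15Ab. Among other protein-coding genes 14.8% of single-exon genes and 31.1% of genes with more exons were bound.

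Among the 24 members without an optimal summit were RpL4, RpL5, RpL6, RpL9, RpL10, RpL10Aa, RpL11, RpL15, RpL21, RpL27, RpL34a, RpL36A and RpL38 of the large subunit and RpS5a, RpS5b, RpS10a, RpS13, RpS15Ab, RpS18, RpS24, RpS26, RpS27A and RpS30 of the small subunit. In 13 of them at least 1 replicate had a strong summit. Of all members with a strong summit in at least 1 replicate, 13 of 73 (17.8%) thus had no optimal summit. Among other protein-coding genes with such a strong summit the share was 24.1% (1226 of 5090). RpL4, which lines the peptide tunnel, had 2.24 in replicate 1 and 1.96 in replicate 2 but no strong summit in replicate 3. RpL36A had 1.06 in replicate 1 and 1.65 in replicate 3. RpS26 had 0.566 in replicate 2 and 0.740 in replicate 3. Each of these 3 thus lacked a strong summit in 1 replicate.

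Strong summits in replicate 1 alone were found at RpL11, which carries the 5S ribosomal RNA together with RpL5, with a relative score of 2.26, at RpL27 with 1.79, at RpL10 with 1.02 and at RpL34a with 0.620. In replicate 2 alone they were found at RpL15 with 0.576 and RpS24 with 0.552, and in replicate 3 alone for instance at RpS13 with 0.727 and RpL6 with 0.708. The highest of the values seen in a single replicate, at RpL11 and RpL27, were thus both from replicate 1.

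The remaining 11 unbound members, RpL5, RpL9, RpL10Aa, RpL21, RpL38, RpS5b, RpS10a, RpS15Ab, RpS18, RpS27A and RpS30, had no strong summit in any replicate. Of the 24 unbound members 7 had a weaker peak in the list called on all replicates and 17 had none. With these 7, 68 members had a peak in that list, against 37.9% of all protein-coding genes. Of the bound members, RpS15 and RpS19b had their nearest optimal summit farthest from a TSS, at 556 and 526 bp, well inside the window of 1000 bp. RpS13 and RpS15Ab were the nearest outside it, with the nearest optimal summit 1538 and 1728 bp away.

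Among members whose values were seen before they were singled out, 4 lay more than 100000 bp from the nearest optimal summit (4.71%), against 2.47% of other protein-coding genes. These were RpL15 at 4388390 bp, RpL38 at 1210516 bp, RpL5 at 368000 bp and RpL10 at 216606 bp. All 4 encode large-subunit proteins, and RpL10 and RpL15 were those with a strong summit in a replicate.

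By chromosome arm, 12 of the 13 members on X were bound (92.3%), against 29.2% of other protein-coding genes on X. All 13 had a strong summit in each of the 3 replicates, and the exception in the optimal list was RpS5a. Elsewhere 12 of 14 members were bound on 3L, against 30.5% of other genes there, 12 of 18 on 2R, against 29.7%, 14 of 22 on 3R, against 28.2%, and 10 of 17 on 2L, against 659 of 2640 other genes. The only member on 4, RpS3A, was bound, against 17.7% of other genes. On the autosomal arms other than 4 the share of members in single replicates averaged 85.7% ± 7.14 on 3L, 66.7% ± 5.25 on 3R, 64.7% ± 10.2 on 2L and 63.0% ± 6.42 on 2R (SD, n = 3 each). The numbers of members per arm are small, and no difference between arms was tested.

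Many ribosomal protein genes carry small nucleolar RNAs, which guide the modification of ribosomal RNA, within their introns. Of 28 such members 21 were bound (75%), against 40 of 57 members without them (70.2%). Among other protein-coding genes that host small nucleolar RNAs 38 of 56 were bound (67.9%), and of those without them 28.3%. Host members were thus near the share of other host genes, and members without small nucleolar RNAs were above the share of other genes without them.

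Summits at members were concentrated at the start site. The strongest summit lay within 50 bp of a TSS of the gene in 47 of 61 bound members (77.0%), against 33.7% of other bound protein-coding genes, and within 100 bp in 50 members (82.0%), against 47.5%. The median absolute distance was 20 bp in members and 121 bp in other bound genes. The summit lay upstream in 44 members, downstream in 15 and at the TSS in 2, RpL27A and RpL31. The median position was -17 bp, upstream of the TSS, with -18 bp in large-subunit and -3.5 bp in small-subunit genes. With only the 5′-most TSS of each gene the median was -8.00 bp, and with the strong summits of replicate 3 it was -8.50 bp.

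**Figure D3:**
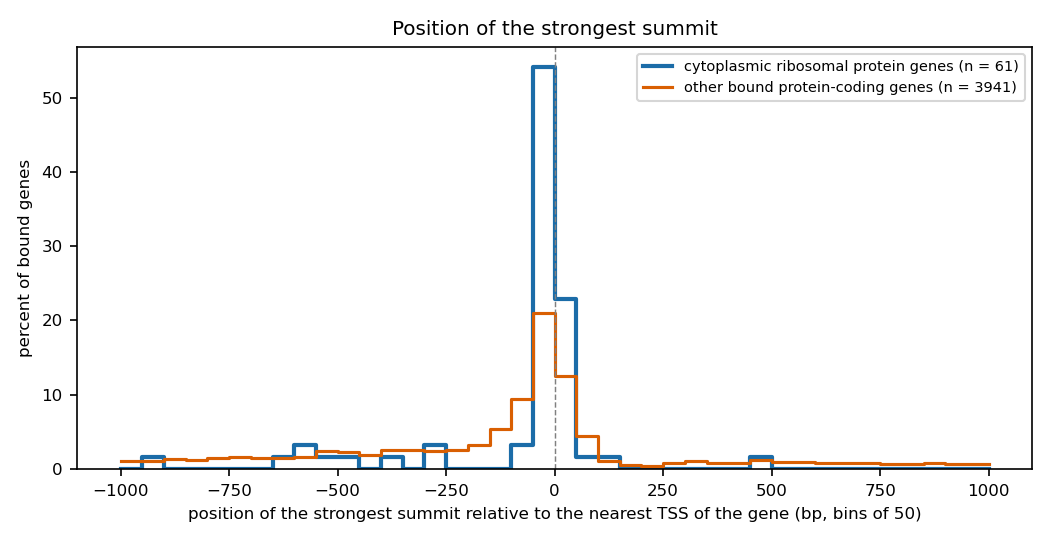
Position of the strongest optimal summit relative to the nearest TSS of the gene (horizontal axis, bp, negative upstream, bins of 50) as percent of bound genes, for 61 members and 3941 other bound protein-coding genes. In members 54.1% of summits fall in the 50 bp before the TSS and 23.0% in the 50 bp after it. The line for other genes is lower there and higher in most, but not all, of the other bins.

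In 52 of the 61 bound members (85.2%) no other gene had a TSS nearer to the strongest summit, against 72.1% of other bound protein-coding genes. In the other 9 the summit lay nearest to a neighbour. Besides RpL22, RpS19b and RpS28a these included RpL7A (nearest to dx), RpS20 (CG17271), RpS15 (CG4927), RpL26 (CG3902) and RpL35 (Rab18). RpL7A, RpL26 and RpL35 had in addition a weaker optimal summit 11, 48 and 23 bp from their own TSS. In replicates 1, 2 and 3 the highest strong summit of RpL35 lay 157, 66 and 73 bp downstream of its TSS. Its relative scores there were 0.774, 0.759 and 1.10. Near the counted summit of RpL35, 558 bp upstream, replicate 1 had none, replicate 2 had 0.539 and replicate 3 had 0.878. In all, 17 members had 2 optimal summits and none had more, and no summit was shared by 2 members. More than 1 optimal summit was found in 11 of 23 bound translation factor genes and 6 of 13 ribosome biogenesis genes. It was found in 7 of 26 mitochondrial ribosomal protein genes and 2 of 11 proteasome genes. The count was not made for all other genes.

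The 61 summits, the strongest of each bound member, differed in sequence from those near other genes. In comparisons with other protein-coding genes, the other side holds every optimal summit near such a gene, weaker ones included. The sets compared are thus unlike. In single replicates the members' shares likewise rest on 1 summit per member (n = 65, 62 and 62 in replicates 1, 2 and 3). GAGAG, the core of the GA repeat to which Psq is known to bind, was found on either strand within 100 bp of the summit in 5 bound members (8.20%), against 47.0% of the 5159 optimal summits near other protein-coding genes. These members included RpL41, RpL7A, RpL29 and RpLP2. The longer GAGAGAGA, which contains it, occurred at 1.64% of the members' summits and 9.48% of the others. Over the replicates' own strong summits the share with GAGAG was 13.8%, 12.9% and 9.68% in members in replicates 1, 2 and 3, against 45.9%, 46.0% and 47.3% near other genes. The difference, members minus others, was -34.3 ± 2.98 percentage points (SD, n = 3), lower in 3 of 3 replicates, and the exact permutation test (sign flips, two-sided) gave p = 0.25, the smallest possible. Restricted to summits within 100 bp of a TSS, an alternative chosen after seeing the data, the shares were 6.0% of 50 members' summits and 38.4% of 2628 summits at other genes. The share depended on the width searched, with 4.92% of members' summits within 50 bp and 37.7% within 250 bp, where 64.7% of the summits near other genes held GAGAG.

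Motifs of other promoter factors were more frequent at the members' summits than near protein-coding genes at large. The DREF site TATCGATA was found at 24.6% of them, against 5.02% near other genes, and at RpL28, RpL41 and RpS29 among the 10 highest-scoring members. GGTCACAC was found at 16.4% against 4.57%, and the E-box CACGTG, bound by factors such as Myc with Max, at 13.1% against 2.89%. Over the replicates the differences, members minus others, were 20.1 ± 2.12 percentage points for TATCGATA, 10.6 ± 1.79 for GGTCACAC and 10.4 ± 2.08 for CACGTG (SD, n = 3 each; exact permutation p = 0.25 for each, the smallest possible). The number of members behind these shares is small, 15, 10 and 8 in the order given. TATAAA was found at 14.8% against 12.9%, and CACACACA at 1.64% against 15.2%. Restricted to summits within 100 bp of a TSS, again after seeing the data, the shares were 28% of members' summits against 9.25% for TATCGATA, 18% against 8.14% for GGTCACAC, 16% against 2.59% for CACGTG and 0 of 50 (95% Wilson interval up to 7.13%) against 8.94% for CACACACA. The DREF site was also frequent in other lists, and lay at 7 of 23 summits of translation factor genes (30.4%), 6 of 11 of proteasome genes (54.5%) and 3 of 13 of ribosome biogenesis genes (23.1%), but at 7.69% of those of mitochondrial ribosomal protein genes. GGTCACAC lay at 23.1% of the 26 summits of mitochondrial ribosomal protein genes, 18.2% of those of proteasome genes and 17.4% of those of translation factor genes. It lay at only 1 of 13 summits of ribosome biogenesis genes (7.69%). Within members, CACGTG lay at 7 of the 30 higher-scoring summits and 1 of the other 31, whereas TATCGATA lay at 7 of 30 and 8 of 31.

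The promoters themselves were searched from 250 bp before to 50 bp after the TSS. GAGAG was found in 15 of 85 members (17.6%), against 30.4% of the 13859 other protein-coding promoters of the same length, and GAGAGAGA in 0 of 85 (95% Wilson interval up to 4.32%), against 3.22%. Promoters of mitochondrial ribosomal protein genes were as low, with GAGAG in 12 of 73 (16.4%) and GAGAGAGA in 0 of 73. In the wider window from 500 bp before to 100 bp after the TSS the share with GAGAG was 37.6% in members and 47.8% in other genes. TATCGATA was found in 29.4% against 8.82%, GGTCACAC in 14.1% against 7.50%, CACGTG in 10.6% against 4.25%, TATAAA in 48.2% against 45.3% and CACACACA in 3.53% against 4.43%. CTTT started within 5 bp of the TSS on the gene's strand in 40 members (47.1%), against 5.47% of other genes and 4.11% of mitochondrial ribosomal protein genes. CTTT that starts exactly at the annotated TSS was found in 2 members (2.35%), against 0.520% of other genes. Median GC content was 37.2% in members and 38.2% in the others.

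Bound and unbound members are given side by side as a description. TATCGATA was present in 27.9% of bound and 33.3% of unbound members, and GAGAG in 18.0% and 16.7%. CTTT started within 5 bp of the TSS in 49.2% of bound and 41.7% of unbound members. GGTCACAC was present in 16.4% of bound members and 8.33% of unbound ones, which is 10 and 2 genes. A match is a description of letters and does not show that a factor binds there.

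**Figure D4:**
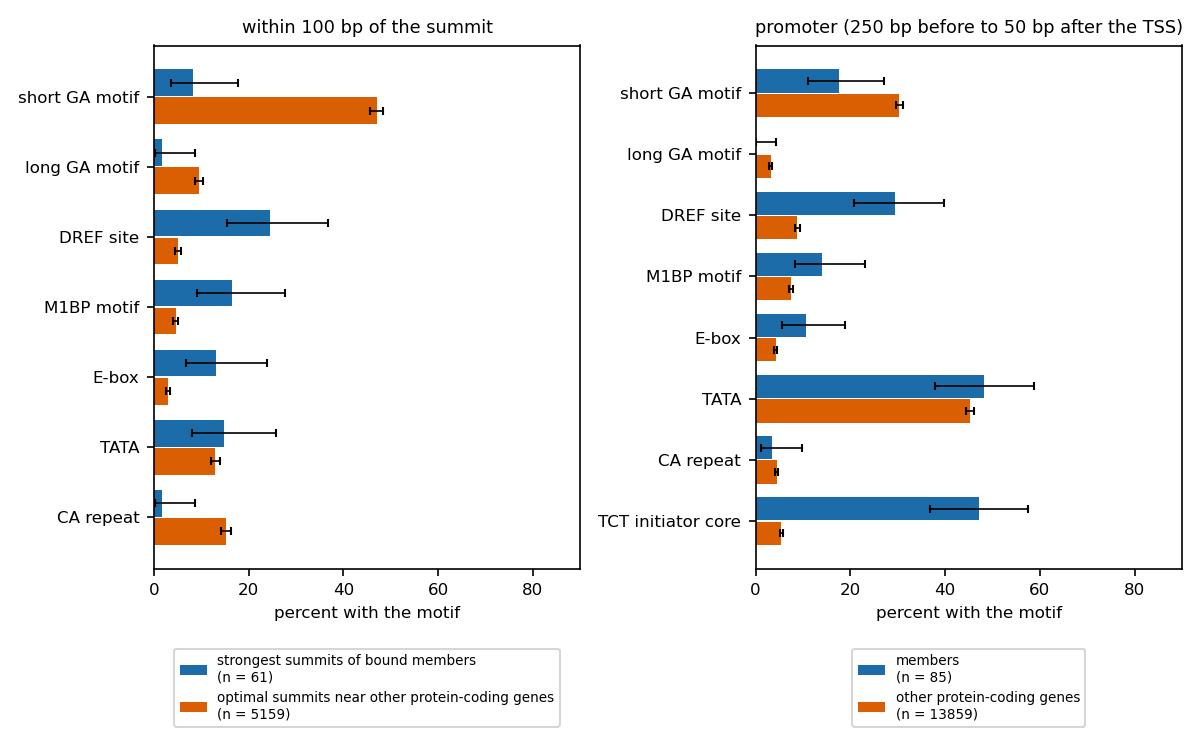
Percent of sequences that hold each motif, within 100 bp of summits (left panel) and in promoters (right panel), for members (blue) and other protein-coding genes (orange). In the left panel blue is the strongest summit of each bound member and orange is every optimal summit near other genes. Error bars are 95% Wilson intervals, which cover counting error only; the short GA motif is GAGAG and the long one GAGAGAGA, and the short one is lower and the DREF site and TCT core higher in members.

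Other gene groups of protein synthesis and turnover were bound less often than the members. The ribosome biogenesis list also holds the growth regulator Myc and its network partner Mnt, a repressor that is bound. In single replicates the share bound averaged 46.9% ± 2.83 in 54 translation factor genes, 40.2% ± 1.70 in 34 ribosome biogenesis genes, 35.2% ± 3.45 in 73 mitochondrial ribosomal protein genes and 25.7% ± 2.41 in 48 proteasome genes (SD, n = 3 each). The differences, members minus list, were 27.2 ± 4.57, 33.9 ± 3.74, 39.0 ± 2.18 and 48.4 ± 4.44 percentage points in the same order, each in the same direction in 3 of 3 replicates (exact permutation p = 0.25 for each, the smallest possible). In the optimal list 23 translation factor genes, 13 biogenesis genes, 26 mitochondrial ribosomal protein genes and 11 proteasome genes were bound.

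Position set members apart from their mitochondrial counterparts as well. The strongest summit lay within 50 bp of a TSS in 77.0% of bound members and in 5 of 26 bound mitochondrial ribosomal protein genes (19.2%), whose median position was -188.5 bp. No gene had a nearer TSS in 52 of 61 members and in 6 of 26 mitochondrial ones. GAGAG was present at 7 of those 26 summits (26.9%) and at 6 of 23 summits of translation factor genes (26.1%), against 8.20% of the members' summits. It was also present at 4 of 13 summits of ribosome biogenesis genes and 2 of 11 of proteasome genes (18.2%). Among the genes outside the naming rule that are described next, it was present at 1 of 5.

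Of 7 genes outside the naming rule, namely Rack1, sta and those with an RpL or RpS symbol that ends in -like, 5 were bound. The -like genes were taken by symbol alone, and whether they encode ribosomal proteins was not checked. Rack1, a scaffold protein of the small subunit, had relative scores of 4.19, 2.99 and 4.49 in replicates 1, 2 and 3, within the range of the 10 strongest members, at 32 bp upstream of its TSS. The protein encoded by sta, a component of the small subunit, had 1.67, 1.19 and 1.86 at 4 bp upstream. RpLP0-like had 2.77, 2.09 and 2.77, and RpS28-like had a summit 721 bp downstream that lay nearest to numb. RpL7-like was bound in the optimal list but had a strong summit in only 1 replicate. RpL22-like and RpL24-like were not bound.

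Genes of factors linked to ribosomal protein promoters were examined as well. Of 10 such genes 7 were bound, and 7, 6 and 8 of them had a strong summit in replicates 1, 2 and 3, so the share differed from that of the members by less than the spread between replicates. The difference, members minus these genes, was 4.12 ± 10.2 percentage points (exact permutation p = 0.75). The psq gene had relative scores of 4.69, 7.23 and 5.08 in replicates 1, 2 and 3, and Trf2 had 4.24, 4.49 and 4.01. Dref and RpL13 are divergent neighbours, and the summit counted for both, 14 bp upstream of RpL13 and 70 bp upstream of Dref, had 2.05, 3.10 and 3.03.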

How the data were processed

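Psq-GFP was profiled by chromatin immunoprecipitation and sequencing in 3 biological replicates. Per the listing that accompanies the deposited files, the authors called peaks in each replicate and on all replicates together against 1 control alignment on dm6, and thresholded the last by the irreproducible discovery rate (IDR) into the optimal list. The sources used here name no caller, aligner, read filter or version. The score of each peak is the authors' own signal value per peak, deposited without its normalization, and was compared across replicates only after division by the median of the replicate's 10138 highest-scoring peaks. Summits were computed from the deposited offsets.

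Genes and TSSs were those of Ensembl release 115 (18164 genes and 23584 TSSs on 6 arms, without transposable elements), and sequence was the RefSeq dm6 assembly. Replicate summits were matched within 200 bp. Wilson intervals of 95% were computed only for motif shares in promoters and at optimal summits, not for shares bound. Comparisons over replicates used exact sign flips. Calculations used Python 3.11.15, numpy 2.4.6, pandas 2.3.3, scipy 1.17.1 and matplotlib 3.10.9, and the assignment of summits to genes was tested on simulated data.

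The members, lists, motifs and alternatives were chosen with earlier results of these data known. Named were the 10 highest- and 3 lowest-scoring bound members, unbound members, paralog pairs, stalk and ubiquitin fusion genes, RpS3, RpS6, RpS13 and RpS21, members nearest to another gene and up to 4 genes per comparison list. A few members enter the counts but are not reported by name here. Of 38 biogenesis gene names 34 were matched, 3 of them by a synonym. Peak lists on dm3 and columns other than score and summit were not used.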

Additional observations from a re-analysis of the deposited data

How the results depend on the processing

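The number of bound members stayed between 53 and 68 over 9 alternatives in the window, TSS choice, list and replicates. The share of all protein-coding genes bound ranged from 18.4% to 37.9% over them. The 68 came from the full permissive list, with 37.9% of all genes, and the 53 without replicate 1, with 21.9%. The difference in share bound stayed between 44.2 and 47.3 percentage points over 6 alternatives. Leaving out a replicate gave 53 to 55 bound members, against 21.1% to 21.9% of all protein-coding genes. It gave a difference of 44.2 to 46.1 points, a relative score of 1.74 to 1.92 and a position of -17.0 to -16.5 bp. The median score as a percentile rank within the replicate was 75.3. The median position was -8.00 bp with only the 5′-most TSS of each gene and -8.50 bp with the summits of replicate 3. The share of members' summits with GAGAG was 4.92% within 50 bp and 37.7% within 250 bp (64.7% near other genes), 5.45% with only the higher-scoring optimal peaks (above the median score), 6.0% for summits within 100 bp of a TSS (chosen after seeing the data) and 5.56% to 7.27% without a replicate. It was lower than near other genes in every one of these. In promoters of 500 bp before to 100 bp after the TSS it was 37.6%, against 47.8% in other genes. The cause of these shifts was not tested beyond the wider windows holding more sequence. No paired analysis was possible because there is 1 group of samples, and the sign flips compare gene lists within each replicate. Depth is unknown, and 3 replicates cannot give an exact p under 0.25.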

Other observations

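Words of 6 letters were counted in the promoters and at the summits after their values were seen, so the following are descriptions with no test. CCGGAA, on either strand, was found in 38.8% of the members' promoters, against 6.54% of other protein-coding promoters, and within 100 bp of 36.1% of the members' summits, against 3.99% of optimal summits near other genes. AAAGAA, which reads TTCTTT on the other strand, was found at 65.6% of the members' summits against 21.4%. In promoters of all members, bound or not, it was found in 69.4%, against 31.1% of other promoters. CGGAAA, which shares letters with CCGGAA, was found at 49.2% of the members' summits against 11.5%. In promoters it was found in 45.9% against 16.2%. The summits near other genes were not matched for nearness to a TSS.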
